A study of Leucoraja erinaceus with 4 samples.

Results

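The transcripts shared by body skin and liver of the little skate were taken as the assembled genes that stood well above both ampullary samples in each of these 2 tissues. An assembled gene is a group of transcript sequences built from the reads. It entered the set with at least 30 reads in both body skin and liver, and with a lower CPM of these 2 at least 4 times the higher CPM of ampullary receptor cells and ampullary canals. CPM is reads per 1000000 reads of the library total. The rule's ratio and the log2 differences of CPM add a pseudocount of 0.5 to each CPM, unless another pseudocount is named. Folds printed with an interval are plain CPM ratios. The rule found 116 assembled genes, which is 1.07% of the 10828 that had 30 reads in both tissues, out of 186064 in all. Because the counts themselves chose the set, its height above the ampullary samples is a description and carries no test.

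All 4 samples came from 1 adult Leucoraja erinacea, the labels name no treatment, and each tissue gave 1 poly(A)-selected, stranded library. Ampullary receptor cells are the electroreceptor cells, ampullary canals are the structural tubes of the same organs, body skin is skin not covered by electroreceptors, and liver was a sample of 4 mg. The libraries held 11071249 to 12303108 reads on assembled genes. Liver was the most concentrated, with its leading 50 assembled genes holding 48.2% of its reads, against 18.9% to 27.9% in the others. There is no replicate of any tissue, so no p-value was computed, and the spread between skates, dissections or libraries is unknown. Intervals are exact 95% intervals of the counting error of independent reads only.

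The identifiers are assembly numbers, and 0 of them matched the 23250 genes of the reference table (assembly Leri_hhj_1). No gene name, function or tissue marker could therefore be attached, the label of each tissue could not be checked against markers, and no sequence is shown. As background, vertebrate liver makes most plasma proteins, forms bile and stores lipid, while skin forms the outer barrier and, in fishes, secretes mucus. Ampullary organs are gel-filled structures whose receptor cells respond to weak electric fields. In bulk tissue, fewer cells of a type and less RNA per cell cannot be told apart.

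The set took a small part of both libraries and almost none of the ampullary ones. It received 205615 of the skin reads, or 1.75% (1.75 to 1.76), and 156439 of the liver reads, or 1.41% (1.41 to 1.42). It received 11790 receptor-cell reads, or 0.0963% (0.0946 to 0.0981), and 10102 canal reads, or 0.0821% (0.0805 to 0.0837). In skin the reads were uneven, since 2 assembled genes held 51.1% of them. Without these 2 the set took 0.857% of the skin reads. In liver the leading 2 held 24.1%, and without them the set took 1.07% of the liver reads.

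Per length, the median level was 19.1 TPM (the authors' length-scaled share of transcripts) in skin and 27.9 TPM in liver, against 1.24 in receptor cells and 0.56 in canals. The range was 1.49 to 4787 TPM in skin and 1.04 to 2098 TPM in liver. The set thus covered both rare and abundant transcripts. Among the 1000 highest assembled genes by TPM, the skin library had 15 of the set and the liver library 31. Similar ranks stand for different levels in these libraries, as rank 1001 in skin was 104 TPM and rank 978 in liver was 78.0 TPM. The same share over all rows was not computed, so no lean to either tissue is read from the 2 counts. Both tissues had 100 reads or more for 77 of the 116 (66.4%, against 56.4% of all rows with 30 reads in both), and 1000 or more for 13 (11.2%, against 4.90%). The rule used these same counts, and its pseudocount lowers the ratio most where counts are low. It thus favours rows with high counts, so nothing is read from these shares.

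**Figure D1:**
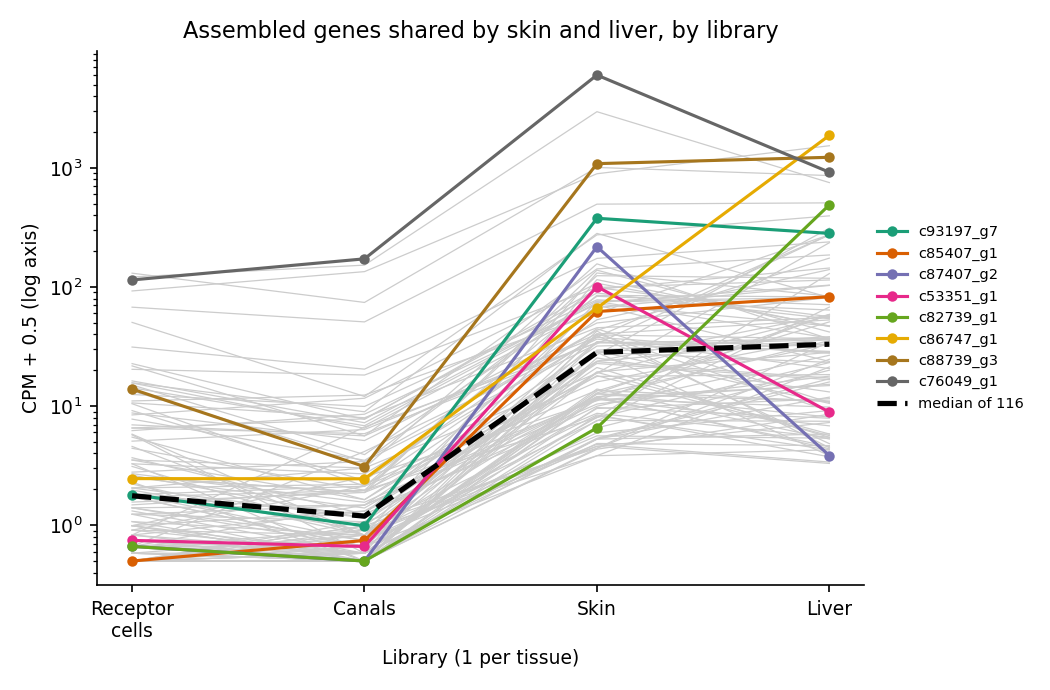
CPM + 0.5 (log axis) of the 116 assembled genes in the 4 libraries, 1 per tissue. Each line joins the values of 1 assembled gene, and the dashed line joins the medians. Coloured lines are the 8 named in the text for their ratio or level, without those named for length. All lines are higher in skin and liver than in receptor cells and canals, as the rule requires, while the coloured lines cross between skin and liver.

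The 2 assembled genes with the largest ratio to the ampullary libraries were within 1.5-fold between skin and liver by library totals. Assembled gene c93197_g7 had read counts of 16 (receptor cells), 6 (canals), 4415 (skin) and 3113 (liver). It was 288.3-fold higher in skin than in receptor cells (177.3 to 504.8) and 215.1-fold higher in liver than in receptor cells (132.2 to 376.8). Its skin level was 1.34 times its liver level (1.28 to 1.40) by library totals, a direction that turned under other scalings (−0.46 on the log2 scale with TMM factors, which correct for library composition). Its lower tissue stood 6.42 to 8.01 above its higher ampullary library on the log2 scale under the 6 alternative scalings, units and pseudocounts tried. Assembled gene c85407_g1 had read counts of 0 (receptor cells), 3 (canals), 723 (skin) and 912 (liver). With 3 reads put in place of the 0, its ratio to receptor cells was 251.8 for skin and 336.1 for liver. The lower interval ends, which use the count of 0 itself, were 204.2 for skin and 272.8 for liver. Against canals the ratios were 253.1 for skin (86.25 to 1230) and 337.8 for liver (115.2 to 1641). The receptor-cell and canal counts of this assembled gene are at the limit of what the libraries can show.

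The 2 assembled genes with the highest CPM in the lower of the 2 tissues differed in pattern. Assembled gene c88739_g3 (3139 bases) had read counts of 164 (receptor cells), 32 (canals), 12706 (skin) and 13575 (liver). Its level was 413 TPM in skin and 497 TPM in liver, ranks 247 and 223 of these libraries. It was 416.9-fold higher in skin than in canals (295.2 to 609.8) and 471.4-fold higher in liver than in canals (333.8 to 689.5). It was thus close to equal in skin and liver by library totals (−0.18 on the log2 scale, and −1.06 with TMM factors), and present at a low level in receptor cells. The other rows that share the first part of its identifier had 735 (receptor cells), 730 (canals), 3601 (skin) and 3612 (liver) reads. Such rows can be pieces of 1 gene, so the folds over canals hold for this assembled gene alone. Assembled gene c76049_g1 (1620 bases) had read counts of 1396 (receptor cells), 2113 (canals), 70459 (skin) and 10166 (liver). It was the highest of the set in skin, at 4787 TPM (rank 15), and had 777 TPM in liver. Skin exceeded liver 6.55-fold (6.41 to 6.69), and liver exceeded canals only 5.35-fold (5.10 to 5.61). It entered the set through a liver level not far above the threshold, and its 92.9 TPM in receptor cells and 128 TPM in canals exceeded the medians of all rows with 30 reads in both tissues (16.7 and 10.7 TPM).

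Other abundant members were nearly balanced by library totals. One of 3413 bases had read counts of 1592 (receptor cells), 906 (canals), 11802 (skin) and 9532 (liver). Another of 1178 bases had 822, 620, 5803 and 5621 reads in the same order. One more, of 2073 bases, had 15, 18, 1451 and 1304 reads. The first pair kept 620 reads or more in both ampullary libraries, while the last came close to none there. Another skin-leaning member, of 973 bases, was the second highest in skin with 34696 reads and had 8319 in liver, 1479 in receptor cells and 1870 in canals.

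Height above the ampullary samples fell off quickly through the set. The ratio of the lower tissue to the higher ampullary library had a median of 6.18, with quartiles of 4.92 and 9.28. Of the 116, 35 reached 8-fold, 14 reached 16-fold, 5 reached 32-fold and 3 reached 64-fold. The members just inside the threshold had ratios of 4.01, 4.01 and 4.05. The first of them (1344 bases) had read counts of 10 (receptor cells), 1 (canals), 56 (skin) and 59 (liver). Those just outside had ratios of 3.999, 3.996 and 3.981, and the nearest (855 bases) had 1, 4, 316 and 31 reads. The values just inside and just outside were alike, and 357 rows reached 2-fold or more. By counting error alone, the lower interval end of all 4 ratios reached 4 for 87 members, 3 for 115 and 2 for all 116. The same counts chose the members, so these ends lean high by selection. They also belong to plain CPM ratios, without the pseudocount of the rule, which lowers the ratios of the members. These numbers are therefore a description and do not test membership.

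In the ampullary libraries most members were low but not absent. The median was 15.5 reads in receptor cells and 8.5 in canals, against 342 and 250 over the 10828 rows with 30 reads in both skin and liver. No read was found in receptor cells for 15 members (12.9%, against 0.148% of the 10828 rows) and in canals for 18 (15.5%, against 0.434%). The rule keeps rows that are low there, so nothing is read from these shares. Neither library had a read for 4 members. Any row with 30 reads in both tissues and no ampullary read meets the rule. The number among all 10828 rows is therefore also 4 (0.0369%). A count of 0 leaves room for a level of 0.245 CPM in the receptor-cell library and 0.244 CPM in the canal library. The 4 were assembled genes of 2485 bases (291 skin reads and 140 liver reads), 1406 bases (83 and 77), 798 bases (56 and 126) and 1045 bases (131 and 45). The highest count among these 4 was thus 291, in skin. At the other end, 24 members (20.7%, against 88.2% of all rows) had 100 reads or more in 1 of the ampullary libraries.

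Where the ampullary counts were large enough to compare, more members leaned to receptor cells than to canals. Of the 45 members with 30 reads in 1 ampullary library, receptor cells exceeded canals by 2-fold or more for 21, or 46.7%, against 27.8% of all such rows. Canals were at least 2-fold higher for 2 of the 45 (4.44%), against 10.5%. The median of receptor cells minus canals was 0.81 on the log2(CPM + 0.5) scale, against 0.42 over the 10604 rows with 30 reads in 1 of the 2. With TMM factors the counts were 15 (33.3%, against 15.4% of all rows) and 4 (8.89%, against 19.1%) of the 45, and the medians 0.27 for the members and −0.11 for all rows. With DESeq2 size factors they were 14 (31.1%, against 13.8%) and 7 (15.6%, against 21.4%). The rule used the higher of these 2 levels, so the split is given as a description. A member of 2554 bases had counts of 64 (receptor cells), 1 (canals), 1344 (skin) and 510 (liver). A member of 1613 bases had 65, 4, 1529 and 922 reads in receptor cells, canals, skin and liver. The 2 members that leaned to canals had 4171 bases (4, 76, 392 and 401 reads) and 1932 bases (2, 45, 422 and 223 reads).

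The rule asked for a minimum in skin and in liver and left their ratio free within that. Of the 116, 64 lay within 2-fold between skin and liver (55.2%), close to the 49.6% of all rows with 30 reads in both. Skin was at least 2-fold higher for 24 members (20.7%, against 42.4% of all rows) and liver for 28 (24.1%, against 7.93%). The median of skin minus liver was −0.04 for the set and 0.82 over all 10828 rows on the log2(CPM + 0.5) scale. By library totals 57 members (49.1%) were higher in skin, where 78.1% of all rows were. Both the rule and this ratio use the skin and liver counts, so the difference from all rows is not independent of the choice. The centre also depends on scaling. TMM factors move the median of all rows by −0.85 (to −0.03), and DESeq2 size factors by the same amount. TMM makes every fold of liver over skin 1.84 times as large as printed here, liver over receptor cells 2.44 times, liver over canals 1.67 times and skin over receptor cells 1.33 times. Skin over canals becomes 0.909 times as large, and the intervals hold for library totals only. Of the 204 members found under TMM, 61 were at least 2-fold higher in liver and 35 in skin, with a median of −0.25. The shares over all rows under TMM were not computed, so no lean to liver is read from these counts.

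**Figure D2:**
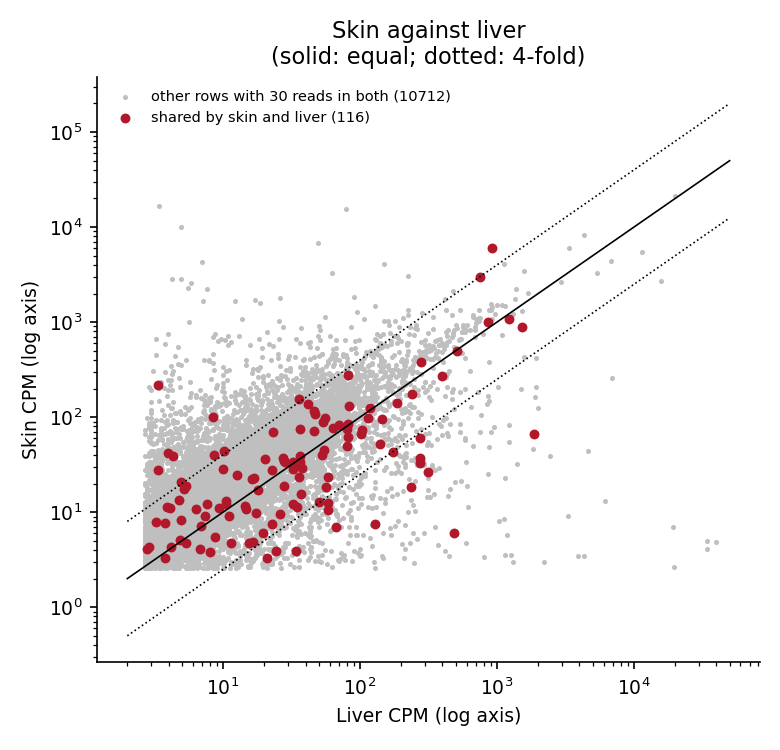
Skin CPM against liver CPM (log axes) for the 116 assembled genes (red) and the other 10712 with 30 reads in both libraries (grey). The solid line marks equal CPM and the dotted lines a 4-fold difference. The red points lie on both sides of the solid line, with 15 beyond the lower dotted line and 9 beyond the upper one on the log2(CPM + 0.5) scale, which are positions under library totals.

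Liver led by at least 4-fold for 15 members (12.9%, against 3.61% of all rows). The furthest was c82739_g1 (1277 bases), with read counts of 2 (receptor cells), 0 (canals), 71 (skin) and 5408 (liver). Liver exceeded skin 80.6-fold (63.8 to 103.4), and skin in turn exceeded receptor cells 37.1-fold (9.90 to 312.2). Its level was 548 TPM in liver and 6.40 TPM in skin, so it was abundant in liver and low in skin. With a pseudocount of 2 its lower tissue stood 1.90 above its higher ampullary library on the log2 scale, under the 4-fold of the rule. The next was c86747_g1 (1378 bases in skin), with read counts of 24 (receptor cells), 24 (canals), 772 (skin) and 20735 (liver). Liver exceeded skin 28.4-fold (26.5 to 30.6), and skin exceeded each ampullary library about equally, 33.6-fold over receptor cells (22.4 to 52.8) and 33.8-fold over canals (22.5 to 53.0). At 2098 TPM it was the highest of the set in liver. Others followed the same order, such as a member of 2043 bases with 18, 5, 310 and 3446 reads in receptor cells, canals, skin and liver, and one of 1873 bases with 37, 31, 215 and 2598.

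Skin led by at least 4-fold for 9 members (7.76%, against 12.5%). The furthest was c87407_g2 (3898 bases in skin), with read counts of 2 (receptor cells), 0 (canals), 2545 (skin) and 37 (liver). Skin exceeded liver 65.0-fold (47.0 to 92.5), and liver exceeded receptor cells 20.4-fold (5.28 to 175.2). Its 37 liver reads were only just above the minimum of 30, at 1.04 TPM the lowest level of the set in liver. Its lower tissue stood 1.46 above its higher ampullary library on the log2 scale by deposited TPM and 1.30 with a pseudocount of 2, both under the 4-fold of the rule. Assembled gene c53351_g1 (1725 bases) had read counts of 3 (receptor cells), 2 (canals), 1174 (skin) and 93 (liver). Skin exceeded liver 11.9-fold (9.65 to 14.9), and liver exceeded receptor cells 34.3-fold (11.4 to 169.2). A member of 1972 bases had 0, 2, 453 and 48 reads, and one of 1318 bases had 0, 3, 493 and 44. These 4 had a large count in skin and a small one in liver.

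**Figure D3:**
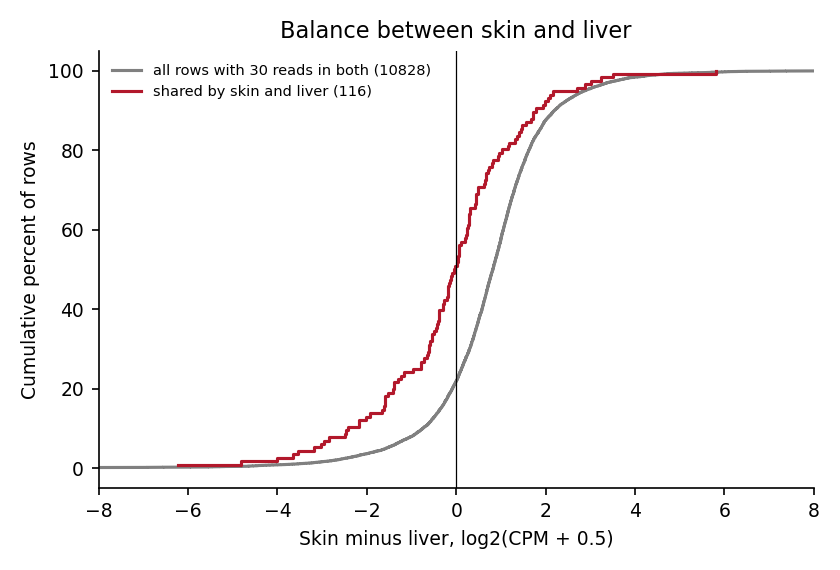
Cumulative percent of assembled genes (vertical axis) by skin minus liver on the log2(CPM + 0.5) scale (horizontal axis, shown from −8 to 8), for the 116 (red) and for all 10828 with 30 reads in both libraries (grey). The red curve crosses 50% near 0 (median −0.04) and the grey one at 0.82, both under library totals; TMM factors move the grey median to −0.03.

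Length was not used by the rule. The members were shorter than the rows they were drawn from, with a median of 1599 bases (weighted by transcript abundance in skin) against 2134. Such a median is not particular to this set. The same rule gave medians from 1450 bases (canals and liver, length in canals) to 1998 (receptor cells and liver, length in receptor cells) for the other pairs of libraries. For receptor cells and skin it was 1657 bases (length in receptor cells). Only 14 (12.1%) exceeded 3000 bases, against 29.1% of all rows with 30 reads in both tissues, and 6 (5.17%) were under 500 bases, against 1.48%. The longest had 7537 bases and 185, 74, 780 and 1135 reads in receptor cells, canals, skin and liver. The shortest had 314 bases and 6, 10, 205 and 57 reads. A length here is that of an assembled sequence, which may be a fragment. When the set was chosen by deposited TPM in place of CPM, its median length was 1365 bases. It was 1859 bases with a minimum of 100 reads and 1878 with a pseudocount of 2 in place of 0.5.

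The median number of transcripts was 1 per member and 2 over all rows. There were 53 members with 2 or more transcripts (45.7%, against 51.0%) and 11 with 5 or more (9.48%, against 9.22%), with at most 7. An abundance-weighted length is a mean and does not show which transcripts a tissue used. For these 53, this mean length was compared between skin and liver. It differed by at least 1.5-fold for 7 of them, longer in skin for 4 (7.55%, against 2.03% of 5522 rows) and longer in liver for 3 (5.66%, against 1.58%). The median absolute difference was 0.046 on the log2 scale, against 0.022. The mean lengths in skin and liver were within 1.1-fold for 36 of the 53 (67.9%, against 79.0%).

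The 4 assembled genes described next by identifier were chosen after their values were seen. Assembled gene c85322_g3 had read counts of 19 (receptor cells), 31 (canals), 1826 (skin) and 400 (liver). Its mean length was 1580 bases in skin and 357 in liver, 4.42-fold longer in skin, with 268 in receptor cells and 350 in canals. By reads it was higher in skin, but by TPM it was higher in liver, at 313 against 128. Assembled gene c93177_g1 had 888 reads in skin and 895 in liver, with 1341 bases in skin and 530 in liver, and 75.4 TPM in skin against 311 in liver. TPM is scaled by length, though not in plain proportion to the printed length. In both, the liver library had the higher TPM from a similar or lower read count. For c85322_g3 skin minus liver on the log2 scale was 2.09 by CPM, 2.15 by mean length and −1.29 by TPM. For c93177_g1 these values were −0.09, 1.34 and −2.04. The printed mean length thus does not give the TPM differences in full, and the rest was not tested.

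Mean length was greater in liver for 3 members. Assembled gene c91353_g6 had read counts of 0 (receptor cells), 1 (canals), 142 (skin) and 361 (liver), with a mean length of 437 bases in skin and 1711 in liver. It was higher in liver by reads and higher in skin by TPM, at 63.8 against 25.9. Assembled gene c89851_g4 had 261 reads in skin and 179 in liver, with 377 and 1092 bases, and 164 TPM in skin against 22.0 in liver. An abundant member of 938 bases in skin and 2618 in liver had 10448 skin reads and 16973 liver reads, with 1393 and 756 TPM. In all, 8 members were higher in skin by CPM and in liver by TPM (6.90%, against 2.72% of all rows), and 3 were higher in liver by CPM and in skin by TPM (2.59%, against 0.388%). Of these 11, 3 had 1 transcript and so no length difference between transcripts, and 8 lay within 0.5 of equality on the log2(CPM + 0.5) scale. For the 4 assembled genes named for length, the other rows of their assembly clusters had more liver reads than they had, 1.31 times as many for c85322_g3, 2.01 for c93177_g1, 3.16 for c91353_g6 and 529.7 for c89851_g4. For the other 3 members with a length difference the same ratio was 0.014, 0.144 and 0.451, and it was above 1 in 11 of the 40 clusters with other rows. The part of this in the lengths was not tested.

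**Figure D4:**
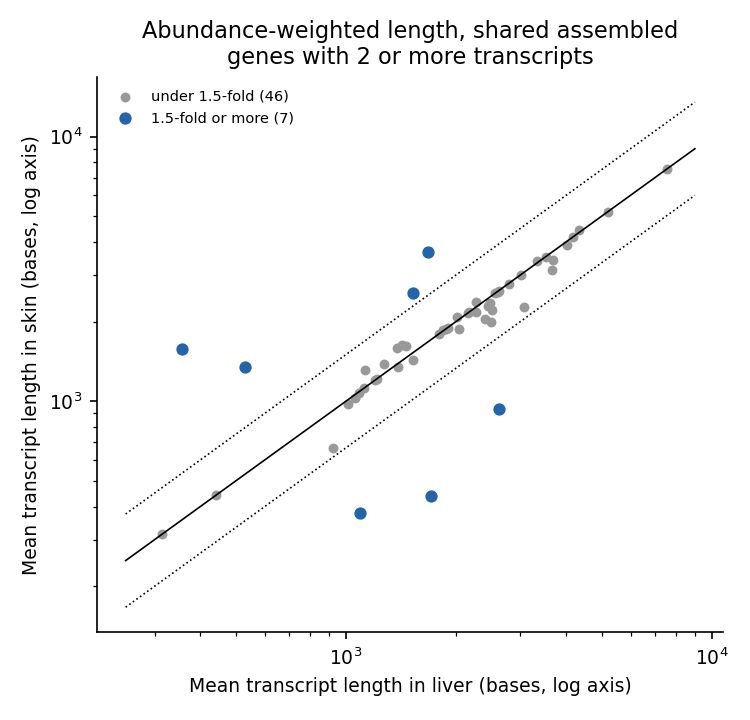
Abundance-weighted mean transcript length in skin (vertical) against liver (horizontal), in bases on log axes, for the 53 members with 2 or more transcripts. The solid line marks equal length and the dotted lines 1.5-fold. Of the 53 points, 36 lie within 1.1-fold of the solid line and 7 (blue) lie beyond the dotted lines, 4 above and 3 below.

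Assembled genes that share the first part of their identifier belong to 1 assembly cluster, which can hold related genes, alleles or pieces of 1 gene. The 116 members came from 114 clusters. In 2 clusters there were 2 members each. In one of these pairs the members had 794 and 882 bases and similar reads, 458 and 397 in skin and 401 and 313 in liver, with 25 and 22 in receptor cells and 17 and 0 in canals. The pair in the other cluster was low, with 48 and 39 skin reads and 75 and 42 liver reads. Members of 1 cluster are not independent. Of the 116, 74 (63.8%, against 69.3%) were the only row of their cluster.

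The clusters held 138 rows that were not members, and since any row that met the rule was a member, their levels are a description. Of these 138, 64 had 30 reads or more in 1 library, and by CPM the highest library was receptor cells for 22 of these, canals for 9, skin for 22 and liver for 11. The same shares over all rows were not computed, so nothing is read from this split. Of the 25 with 30 reads in both skin and liver, 3 had both tissues above both ampullary libraries, against 9.97% of all rows. In cluster c81126, the member (919 bases) had 7, 4, 82 and 745 reads in receptor cells, canals, skin and liver, while another row of 2512 bases had 4218, 118, 1038 and 10. In cluster c90886 the member (2579 bases) had 56, 72, 440 and 3028 reads, and another row of 2446 bases had 4219, 29722, 780 and 163. Rows of the same cluster thus peaked in different tissues.

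In 2 clusters the other rows had at least 100 times the member's reads in skin or liver. In cluster c89851, home of c89851_g4, the other rows had 94809 liver reads against 179 on the member, and 169 skin reads against 261. In cluster c86061, the member of 404 bases had 124 skin reads and 647 liver reads, and the other rows had 36095 and 43845. RSEM divides reads among similar sequences, so the counts of these 2 members could include reads of their abundant relatives, which was not tested. When reads were summed over each cluster, 96 clusters met the rule, of which 92 held a member of the set. The remaining 22 clusters with a member did not meet it as sums.

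The same rule applied to the other pairs of libraries places the size of the set. Receptor cells and canals shared 761 assembled genes (5.5% of those with 30 reads in both) and receptor cells and skin 469 (3.43%). Skin and liver came next with 116, followed by receptor cells and liver with 103 (0.929%), canals and skin with 81 (0.651%) and canals and liver with 49 (0.464%). The pairs share libraries and are not independent of each other. With TMM factors the numbers were 498 for receptor cells and canals, 283 for receptor cells and skin, 204 for skin and liver, 108 for canals and skin, 100 for canals and liver and 99 for receptor cells and liver. Skin and liver held the same place in this order under both.

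**Figure D5:**
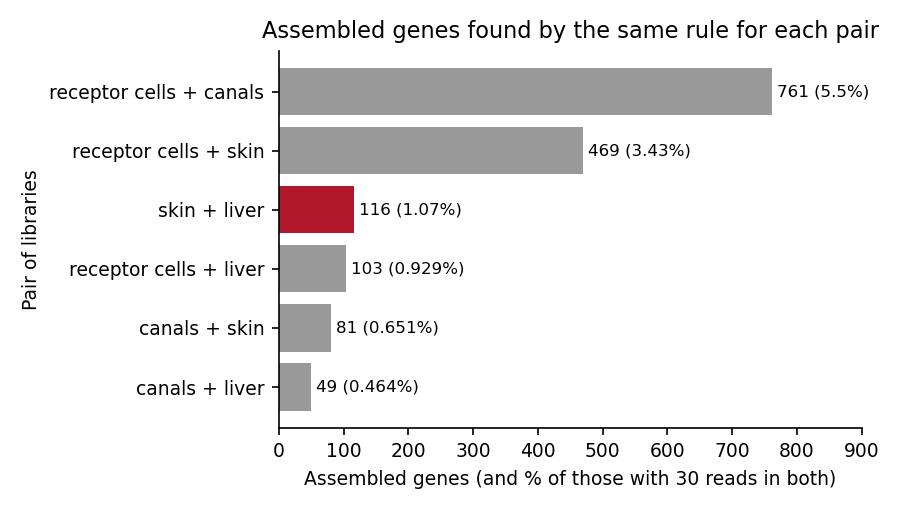
Number of assembled genes (horizontal axis) that the same rule found for each pair of libraries (vertical axis), with the percent of those with 30 reads in both. Skin and liver (red) shared 116 by library totals, below receptor cells with canals (761) and with skin (469).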

How the data were processed

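Per the submitters' processing notes, the authors estimated expression with RSEM 1.1.17, and the files list 186064 assembled genes (221472 transcripts). The assembler, the aligner and any filters were not stated in the sources used. Per the file headers, the deposited expected counts are RSEM's estimates of the reads on each assembled gene, without normalization, TPM values are length-scaled shares, and FPKM values (not used) are the same on another scale. Expected counts were rounded, and 4 members had an estimate over 0.001 from a whole number in any library. The rule's ratio and log2 differences of CPM used CPM + 0.5 unless another pseudocount is named, which understates the change of low values. Log2 differences of TPM used TPM + 0.5, and those of length added nothing. Folds with an interval are plain CPM ratios. Exact intervals of a ratio follow Clopper and Pearson and use the counts as they are. A count of 0 was taken as up to 3 for printed folds and levels only. The intervals cover counting error only, and PCR copies are not independent molecules. The members and lists were chosen with earlier results of these data known.

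Identifiers named are, per comparison and direction, the 2 members with the largest ratio to the ampullary libraries, the largest skin over liver and liver over skin ratios, and the highest lower CPM. Those named for length were added after their values were seen. Other members are given by length and reads. Lists of cell type markers could not be used, since no identifier matched a gene name. Software was Python 3.11.15, scipy 1.17.1, R 4.3.3, edgeR 4.0.16 (TMM factors) and DESeq2 1.42.0 (size factors). No count model was fitted, since each tissue has 1 library. The calculation of the rule was checked on simulated counts with counting error only, which gives no evidence on the members. Alternatives were other scalings, TPM, pseudocounts, read minimums, folds, single ampullary libraries, the interval end and cluster sums.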

Additional observations from a re-analysis of the deposited data

How the results depend on the processing

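No paired analysis was possible because the 4 groups hold 1 library each, and no replicate could be left out. The 4 counts reported (members, those at least 2-fold higher in skin or in liver, and those with no ampullary read) took 48 values under the alternatives, of which 26 lay within 1.5 times and 22 did not. TMM factors gave 204 members (112 of the 116 among them) with 61 higher in liver, and DESeq2 size factors gave 215 (113 among them) with 65 higher in liver. Leaving 50 dominant rows out of each total gave 161 members with 47 higher in liver. The shares over all rows under these scalings were not computed, so no lean to liver is read from these counts. A pseudocount of 2 gave 64 members, 10 higher in skin, 14 in liver and 2 without an ampullary read. A minimum of 100 reads, which tests fewer rows, gave 77, 11, 17 and 1, and a minimum of 10 reads gave 10 without an ampullary read. Against receptor cells only there were 238 members (63 higher in skin, 60 in liver) and against canals only 465 (124 and 107). For both, the shares over all rows are those by library totals, 42.4% higher in skin and 7.93% in liver. A 2-fold rule gave 357 and an 8-fold rule 35. Fewer libraries, a lower fold or a larger pseudocount change the counts by construction. Other scalings multiply each plain CPM fold between libraries by a fixed factor, which also changes the counts by construction. The median log2 ratio of the rule over all rows rose by 0.76 with TMM factors and 0.80 with DESeq2 size factors. It rose by 0.43 without the 50 dominant rows. Which scaling is nearer to the tissues was not tested. The median of skin minus liver was 0.054 against receptor cells only (from −0.04) and 0.048 against canals only, and −0.29 to 0.05 over all alternatives. Skin minus liver of c93197_g7 turned to −0.46 with TMM factors, −0.46 with DESeq2 size factors and −0.13 without the 50 dominant rows. Of 96 values of the 8 assembled genes named for ratio or level under 6 alternatives, 46 lay within a counting interval, 47 lay outside it and these 3 turned. That interval is of the plain CPM ratio by library totals, while the values add a pseudocount. For c85407_g1 the ratio of the rule (83.6) was already under the lower end (86.25). The split thus does not measure movement under the alternatives alone. Median length over cluster sums was not run, since a sum has no length.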
